A study of Mus musculus with 8 samples.

Results

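The genes described here are 50 named mouse genes of DNA replication and cell division, and each was measured through the probe sets whose annotation gives that gene symbol and no other. Replication and G1/S entry are represented by 29 of them, from the MCM helicase to the E2F1 transcription factor, and mitosis by 21, from the B-type cyclins to the kinetochore. Of the 50 genes 49 had such a probe set, 83 probe sets in all, out of 12393 genes with 1 symbol on the arrays. The exception was Ccnb1, the cyclin B1 gene, which was not analysed here. Ccna2, whose cyclin acts in S phase as well as in early mitosis, was counted with mitosis.

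C2C12, a mouse myoblast line, stops dividing and fuses into multinucleated myotubes when serum is withdrawn. All cultures were grown in 10% fetal bovine serum and then held in 2% horse serum until harvest on day 8 of differentiation. From day 4 the control myotubes received fresh medium every 48 h, whereas the starved myotubes were left for 4 days without re-feeding. Both groups are thus the same unmodified line at the same age and differ in medium changes, and each has 4 Affymetrix arrays, lettered A to D for control and E to H for starved. Whether the arrays of a group came from separate cultures was not given in the sources used here. Hence p-values cover only the scatter among these 8 samples, some or all of which may be technical. All 10 myotube markers examined, among them Acta1, Ckm and Myog, were bright enough to be tested.

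As cells commit to division, cyclin E and CDK2 help to release E2F factors. These switch on the genes that license origins, copy DNA and supply nucleotides. A later wave, driven from G2/M promoters, supplies CDK1, the B cyclins, the spindle checkpoint and the anaphase machinery. Myonuclei are postmitotic and E2F targets are held silent by the retinoblastoma family, while a differentiated C2C12 culture also keeps some mononucleated, undifferentiated cells. RNA was taken from whole cultures, so fewer cycling cells and less RNA per cell cannot be told apart in any result below.

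Promoter windows are shown first because replication and mitosis genes are known for different elements there. The RefSeq table of build GRCm38.p6 held the window for 42 of the 50 genes, and the 250 bases before the start were searched on both strands. An E2F element was taken as TTTCCCGC, TTTCGCGC, TTTGCCGC or TTTGGCGC, a CHR element of G2/M genes as TTTGAA or TTCGAA, and the third motif was CCAAT, the site of the factor NF-Y. No motif contains another. The 4 windows printed are those of Rrm2 (chr12:24708004-24708253, plus strand) and Uhrf1 (chr17:56304063-56304312, plus strand) from replication, and Cdk1 (chr10:69352913-69353162, minus strand) and Ccnb2 (chr9:70421555-70421804, minus strand) from mitosis, all genes that were lower in starved myotubes in a test given below. Each is written 5′ to 3′ on the strand of its gene, with motif matches in capitals.
Rrm2: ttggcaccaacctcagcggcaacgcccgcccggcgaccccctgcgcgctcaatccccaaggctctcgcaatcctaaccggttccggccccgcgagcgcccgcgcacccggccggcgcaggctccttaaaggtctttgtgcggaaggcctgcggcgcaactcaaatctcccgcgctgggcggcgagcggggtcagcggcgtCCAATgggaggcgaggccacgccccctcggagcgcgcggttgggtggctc
Uhrf1: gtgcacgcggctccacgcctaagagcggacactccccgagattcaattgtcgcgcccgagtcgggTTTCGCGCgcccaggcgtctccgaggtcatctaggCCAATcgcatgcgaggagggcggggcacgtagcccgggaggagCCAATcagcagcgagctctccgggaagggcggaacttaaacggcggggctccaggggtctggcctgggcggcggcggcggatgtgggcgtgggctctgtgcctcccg
Cdk1: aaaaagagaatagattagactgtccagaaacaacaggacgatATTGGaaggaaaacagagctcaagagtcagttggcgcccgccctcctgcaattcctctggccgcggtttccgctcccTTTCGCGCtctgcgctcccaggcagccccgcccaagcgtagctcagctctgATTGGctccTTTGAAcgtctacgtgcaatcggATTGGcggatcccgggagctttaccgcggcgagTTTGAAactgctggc
Ccnb2: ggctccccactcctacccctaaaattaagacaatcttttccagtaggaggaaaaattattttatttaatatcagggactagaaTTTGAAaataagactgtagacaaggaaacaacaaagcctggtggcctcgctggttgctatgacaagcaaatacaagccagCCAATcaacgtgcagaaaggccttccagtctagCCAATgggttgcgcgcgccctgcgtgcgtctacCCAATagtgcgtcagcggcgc

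The Cdk1 window holds every kind of match, with 1 E2F, 2 CHR and 3 CCAAT. That of Ccnb2 holds 1 CHR and 3 CCAAT matches and no E2F match. Uhrf1 has 2 windows, and the one printed, which has the most matches, holds 1 E2F and 2 CCAAT matches, whereas Rrm2 holds 1 CCAAT match. The windows of Lig1 and Birc5, also lower in starved myotubes, held no match to any motif. A match is a description, not a bound site, and its absence says only that these letters are not in the window.

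E2F matches stood before 8 of 25 replication genes (32%) and 1 of 17 mitosis genes (5.88%), against 2.16% of 27025 genes with a window. CHR matches had the opposite distribution, at 8 of 17 mitosis genes (47.1%) and 4 of 25 replication genes (16%), against 19.6% of genes with a window. CCAAT stood before 15 of 17 mitosis genes (88.2%) and 14 of 25 replication genes (56%), against 37.5% of genes with a window. Over the 9887 genes with a window that were on the arrays, the shares were 3.37% for E2F, 15.5% for CHR and 39.9% for CCAAT. The CHR share of the replication genes was thus near that of the genes on the arrays. Top2a, the DNA topoisomerase of chromosome condensation, had 4 CHR and 6 CCAAT matches.

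Among the 50 genes, those lower in starved myotubes were a DNA ligase, a ribonucleotide reductase subunit and the mitotic kinase CDK1, and none was called higher. Signals were compared as log2 values after an offset of 10.9 and quantile normalization, a scale that understates the change of dim genes, and a gene was called at a Benjamini-Hochberg adjusted p under 0.05 in limma, over 13575 probe sets brighter than a log2 signal of 6.61. Of the 50 genes 28 reached that brightness, 17 of replication and 11 of mitosis. Lig1, Rrm2 and Cdk1 fell, 3 of 28, where 6.94% of the 8352 genes tested in the whole series were lower. No tested member rose, where 4.25% of all genes were higher. At an unadjusted p under 0.05, 6 of the 28 were lower and 1 was higher, against 13.2% and 11.1% of all genes tested.

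In starved cultures all 4 arrays lay below all 4 control arrays for 9 of the 49 measured genes, namely Mcm4, Lig1, Rrm1, Rrm2 and Uhrf1 of replication and Ccnb2, Cdk1, Birc5 and Top2a of mitosis. That is 18.4% of the members, against 7.63% of all 12393 genes, with each gene taken on its brightest probe set. The reverse, every starved array above every control array, was seen for 0 members and for 6.36% of all genes. The values were negative for 37 of the 49 members (75.5%) and for 47.1% of all genes.

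Because 21 members were dimmer than the filter, the fit was repeated without it. Then 6 of the 49 measured members were lower (12.2%), against 4.26% of all genes, and the added ones were Uhrf1, Ccnb2 and Birc5. Again 0 members were higher, against 2.52% of all genes, and at an unadjusted p under 0.05 there were 11 lower and 2 higher, against 10.1% and 8.77% of all genes. Ccnb2 and Birc5 lay just under the filter, with mean log2 signals of 6.58 and 6.52, next to Cenpa at 6.52 and Mcm5 at 6.46. On the other side, Ube2c at 6.65 and Tk1 at 6.70 were tested.

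**Figure D1:**
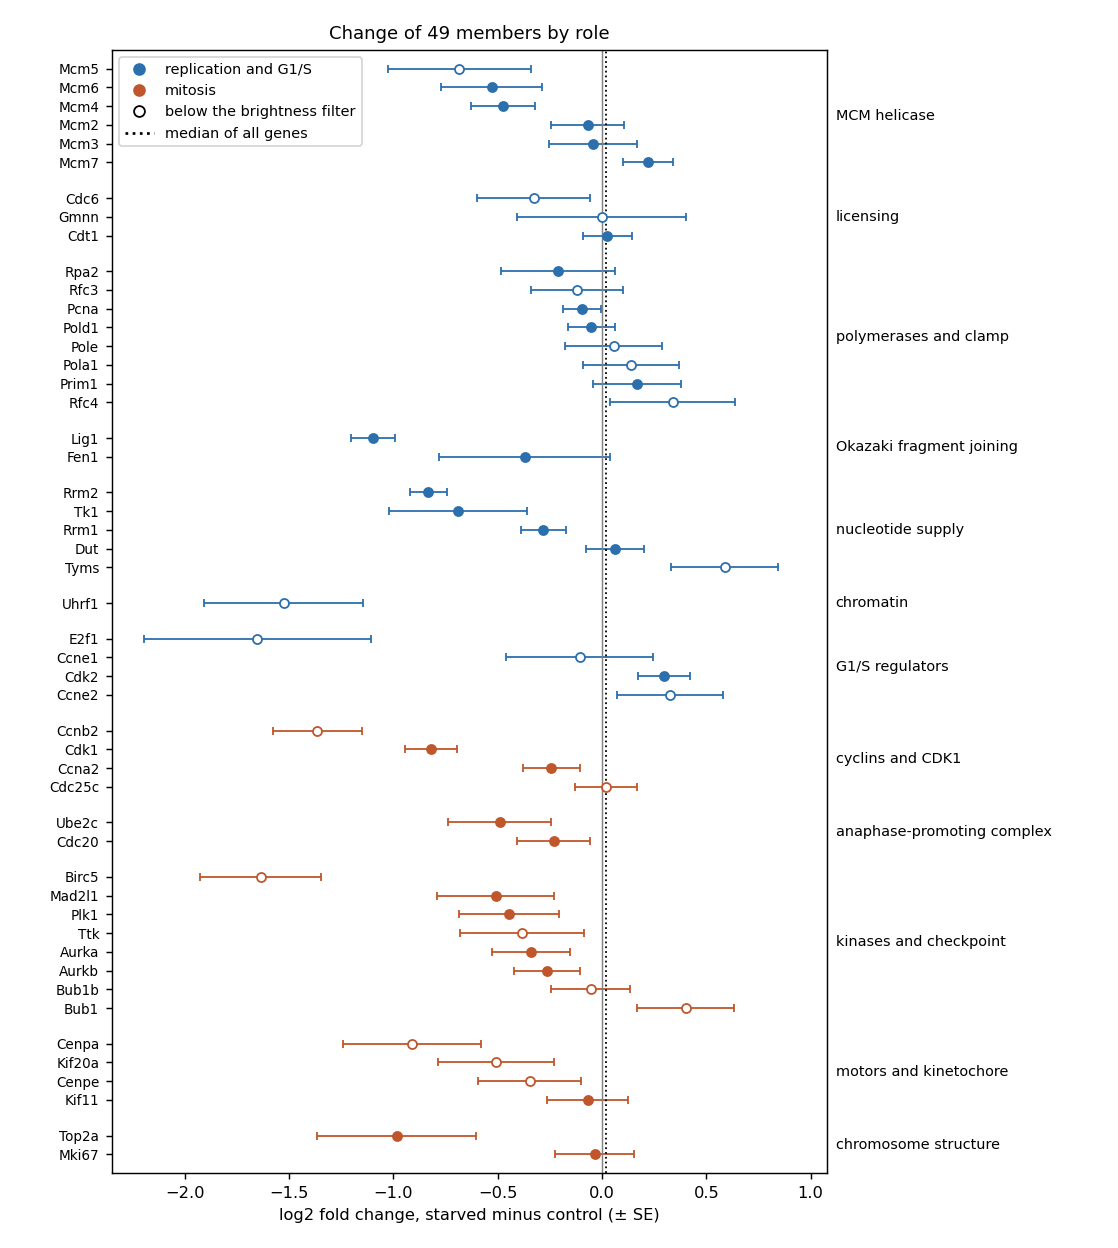
Log2 fold change, starved minus control, of each measured member (x axis), with its standard error from limma, grouped by role (y axis). Filled points passed the brightness filter, open points did not and take their error from the fit without a filter, and the dotted line is the median of all genes. Most points lie left of 0, and 9 lie at -0.82 or lower, namely Lig1, Rrm2, Uhrf1, E2f1, Cdk1, Ccnb2, Birc5, Cenpa and Top2a, of which E2f1, Cenpa and Top2a were not called in either fit.

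The MCM helicase, the hexamer that unwinds DNA at the replication fork, was measured through all 6 of its subunits, and none was called. Mcm5 had the largest change, -0.68 ± 0.34 (SE), but it was below the brightness filter. Its control signals were 6.54, 6.79, 7.07 and 6.81 and its starved signals 6.72, 6.58, 6.08 and 5.09, so the groups overlapped and starved H was the lowest array. Mcm4 was the subunit whose groups did not overlap, at 8.24, 8.36, 7.80 and 7.96 in control and 7.66, 7.76, 7.40 and 7.63 in starved arrays. Its change of -0.47 ± 0.15 did not pass (adjusted p = 0.0749), nor did that of Mcm6, -0.53 ± 0.24 (adjusted p = 0.218). Among the alternatives, Mcm4 was called lower with the mean of probe sets. Both Mcm4 and Mcm6 were called lower with unscaled values, whose all-gene median was -0.34.

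Mcm2 and Mcm3 were at -0.07 and -0.04. Mcm7 pointed the other way, at 0.22 ± 0.12 (adjusted p = 0.301) on its brightest probe set, but its 4 tested probe sets disagreed, with changes of 0.22, 0.31, 0.59 and -0.46. The one at 0.59 passed the test (adjusted p = 0.0280) and was the only probe set of any member called higher among the 40 tested, so the direction of Mcm7 depends on the probe set. Its call was lost without the brightness filter (adjusted p = 0.0530). Licensing factors, which load the helicase at origins, were at -0.33 ± 0.27 for Cdc6, 0.03 for Cdt1 and 0.00 for geminin (Gmnn), the inhibitor of Cdt1. Cdc6 gave 5.40, 4.98, 4.77 and 4.42 in control and 4.61, 4.19, 5.16 and 4.30 in starved arrays, which overlapped widely. Cdc6 and Gmnn were below the filter, and none of the licensing genes passed a test with or without it.

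The polymerases, the sliding clamp and its loader lay on both sides of 0, with 4 of 8 genes negative and none called. Pcna, the clamp that tethers polymerases to DNA, had control signals of 10.15, 10.10, 10.27 and 10.01 and starved signals of 10.18, 9.95, 9.95 and 10.07. The arrays interleaved, and the change was -0.09 ± 0.09 (adjusted p = 0.582). The group ran from -0.21 for Rpa2, a subunit of the single-strand binding protein, to 0.34 ± 0.30 for Rfc4, a clamp loader subunit below the filter. Rfc4 was at 6.35, 6.65, 5.36 and 6.22 in control and 6.28, 6.26, 6.85 and 6.54 in starved arrays, with control C alone well below the rest. A second tested probe set of Rpa2 was at 0.35, of opposite sign. Pold1, Pole and Pola1, the catalytic subunits of polymerases delta, epsilon and alpha, were at -0.05, 0.06 and 0.14, primase (Prim1) at 0.17 and Rfc3 at -0.12.

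Lig1, the ligase that seals Okazaki fragments on the lagging strand, was the member that fell most among those tested. Its signals were 8.69, 8.74, 8.54 and 8.73 in control arrays and 7.58, 7.63, 7.52 and 7.56 in starved arrays. The starved arrays were close together, and every one was far below the lowest control. The change was -1.10 ± 0.10, or 2.14-fold lower (adjusted p = 5.86e-05). Fen1, the flap endonuclease that acts just before the ligase, was at -0.37 ± 0.41 (adjusted p = 0.646), and its 4 control arrays themselves ranged from 7.30 to 9.04.

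Rrm2, the regulated subunit of ribonucleotide reductase, which makes deoxyribonucleotides, fell as well. Control arrays gave 9.90, 10.00, 10.05 and 9.90 and starved arrays 9.08, 9.05, 9.16 and 9.23, with no overlap. The change was -0.83 ± 0.09, or 1.78-fold lower (adjusted p = 1.03e-04). All 3 of its probe sets were called lower, the other two at -0.82 and -1.07. Rrm1, the partner subunit, also did not overlap between groups on its brightest probe set, at 9.33, 9.35, 9.06 and 9.18 against 9.03, 9.05, 8.94 and 8.78. Its change there of -0.28 ± 0.11 did not pass (adjusted p = 0.138). Another tested probe set of Rrm1 was at -0.01 (adjusted p = 0.978) with interleaved arrays, so the separation of Rrm1 depends on the probe set.

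The other nucleotide enzymes had no called change. Thymidine kinase (Tk1), which salvages thymidine, was at -0.69 ± 0.33 (adjusted p = 0.239), and starved E alone was at 5.25, with the other starved arrays at 6.54 to 6.95 and the controls at 6.84 to 7.31. Dut, which removes dUTP, was at 0.06. Tyms, the thymidylate synthase, was below the filter at 0.59 ± 0.26 on its brightest probe set, and its other probe sets stood at 1.37 and 0.07. Without the filter the one at 1.37 had an adjusted p of 0.0350, so one of 3 dim probe sets was higher.

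Uhrf1, which recruits the maintenance DNA methyltransferase to new DNA, was dim. Its signals were 5.92, 6.83, 6.24 and 6.0 in control and 3.95, 5.00, 5.68 and 4.26 in starved arrays, which did not overlap, though starved G came close. Deposited intensities were 60.1 to 93.3 in control and 3.4 to 35.8 in starved arrays. The change of -1.53 ± 0.38 passed only in the fit without a filter (adjusted p = 0.0438), and there it passed in 3 of 16 alternatives, with adjusted p from 0.0105 to 0.115. Its second probe set was at 0.21. Leaving out any array other than starved G ended the call.

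E2f1, the transcription factor that drives S phase genes, had the largest change of any member, -1.65 ± 0.54, and did not pass even without the filter (adjusted p = 0.127). Control signals were 7.31, 7.10, 6.66 and 7.16 and starved signals 4.71, 5.56, 7.18 and 4.18. Starved E, F and H were thus far below the controls, while starved G was at the control level. Without starved G the change was -2.26, and E2f1 was called in the fit without a filter. A dimmer probe set of E2f1, also below the filter, was at -0.64 ± 0.38 (adjusted p = 0.446 without the filter). On that probe set control A, at 4.27, lay below every starved array, and starved G, at 5.24, lay below the other controls. The size of the change and the place of starved G thus depend on the probe set. The remaining G1/S regulators were Ccne1 and Ccne2, the E cyclins, at -0.11 and 0.33 and both below the filter, and their partner kinase Cdk2 at 0.30 ± 0.12 (adjusted p = 0.174).

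**Figure D2:**
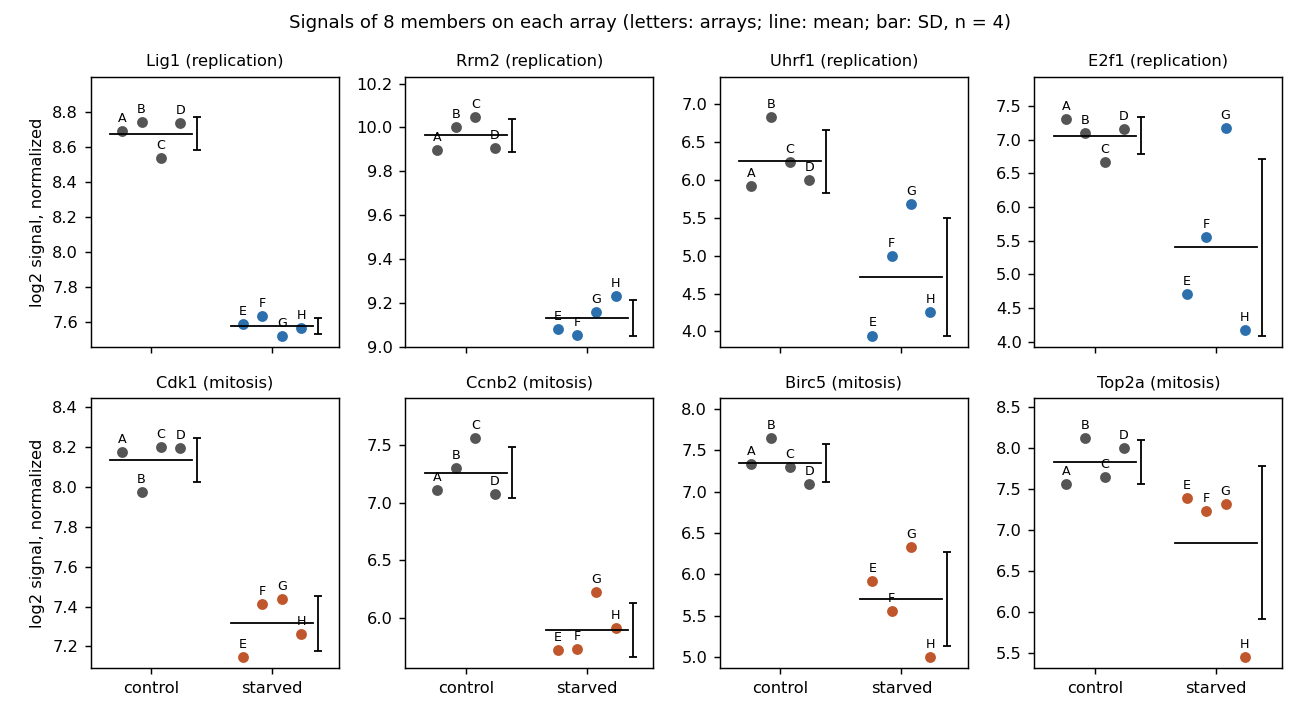
Normalized log2 signal (y axis) of 8 members on each array, control A to D in grey and starved E to H in colour, with the group mean as a line and the SD over 4 arrays as a bar. Groups are separate for 7 of the genes, while starved G of E2f1 lies among the controls and starved H of Top2a lies far below the other starved arrays.

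Among the mitosis genes Cdk1, the kinase that drives entry into mitosis with its B-type cyclins, was the one called lower with the brightness filter in place. Its signals were 8.17, 7.97, 8.20 and 8.20 in control and 7.15, 7.42, 7.44 and 7.26 in starved arrays. No starved array reached the lowest control, which was control B. The change was -0.82 ± 0.13, or 1.77-fold lower (adjusted p = 0.00159). It was called in all 19 alternatives in which it was bright enough to be tested.

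Ccnb2, the cyclin B2 gene, gave 7.11, 7.30, 7.56 and 7.07 in control and 5.72, 5.73, 6.22 and 5.91 in starved arrays, again without overlap. Its deposited intensities were 131 to 184.2 in control and 27.8 to 55.4 in starved arrays. The change was -1.37 ± 0.21, or 2.58-fold lower, and it passed in the fit without a filter (adjusted p = 0.00345) and in all 16 alternatives to that fit. With the filter in place, leaving out any single starved array lifted Ccnb2 above it, where it was called. The filter takes the mean over all arrays, so leaving out a starved array gives the brighter control arrays more weight. That call therefore adds no support of its own. Ccna2, cyclin A2, was at -0.24 ± 0.14 (adjusted p = 0.315), and Cdc25c, a phosphatase that activates CDK1, at 0.02 with signals between 4.21 and 4.54 on every array.

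Birc5, or survivin, the chromosomal passenger protein that works with Aurora B, had the largest change of the mitosis genes. Control arrays gave 7.33, 7.64, 7.29 and 7.09 and starved arrays 5.92, 5.56, 6.33 and 5.00. The lowest control was thus well above starved G, the highest starved array. The change was -1.64 ± 0.29, or 3.11-fold lower, in the fit without a filter (adjusted p = 0.00771), and it was called in all 16 alternatives to that fit. With the filter, Birc5 was tested, and called, when starved F or starved H was left out. Here too the control arrays then weighed more in the mean used by the filter, so these calls add no support of their own.

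No other mitotic kinase or checkpoint gene passed, although 6 of the other 7 were below 0. Aurkb, the kinase partner of Birc5, was at -0.26 ± 0.16 (adjusted p = 0.348). Aurka, the spindle pole kinase, was at -0.34, Plk1 at -0.45 and the checkpoint protein gene Mad2l1 at -0.51. Below the filter, the checkpoint kinases Ttk and Bub1b were at -0.38 and -0.06. Bub1, the exception at 0.40, had a second probe set at -0.98 of nearly the same brightness, and neither passed.

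The partners of the anaphase-promoting complex, which marks cyclins and securin for destruction, were Ube2c at -0.49 ± 0.25 (adjusted p = 0.262) and Cdc20 at -0.23 ± 0.17 (adjusted p = 0.467). Ube2c was at 6.61, 7.0, 7.14 and 6.85 in control and 6.19, 6.75, 6.83 and 5.87 in starved arrays, and starved F and G lay within the control range. A dimmer probe set of Cdc20 was at -0.67 ± 0.17 and passed (adjusted p = 0.0283), so the call of Cdc20 depends on the probe set. It was also lost without the brightness filter (adjusted p = 0.0577).

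Cenpa, the histone variant of the centromere, had the largest change among motors and kinetochore genes, at -0.91 ± 0.33, and did not pass without a filter (adjusted p = 0.174). Its control signals were 6.99, 7.42, 6.86 and 6.63 and its starved signals 5.94, 5.21, 6.41 and 6.71, so starved H overlapped control D. The kinesins Kif20a and Kif11 were at -0.51 and -0.07 and the kinetochore motor Cenpe at -0.35, none of them called.

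Top2a was at 7.56, 8.12, 7.64 and 7.99 in control and 7.39, 7.23, 7.31 and 5.45 in starved arrays. The groups did not overlap, but starved H was far below the other starved arrays, and the change of -0.98 ± 0.38 did not pass (adjusted p = 0.142). Without starved H the change was -0.52 (adjusted p = 0.0911). Mki67, the Ki-67 proliferation marker, was at -0.04 ± 0.19 (adjusted p = 0.932), with control arrays between 6.72 and 7.02 and starved arrays between 6.45 and 7.12.

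Replication and mitosis genes were then set side by side. The median change was -0.09 over the 29 replication genes and -0.36 over the 20 mitosis genes, where the median of all 12393 genes was 0.02. Replication thus stood 0.27 above mitosis. The difference between the list medians on single arrays had an SD of 0.08 within groups. That SD is not an error of the 0.27, for which no test was made. Negative changes were found in 18 of 20 mitosis genes and 19 of 29 replication genes, and under the other scalings in 19 or 20 and in 18 to 26, the last with unscaled values, whose all-gene median was -0.34. Leaving out control C lowered the replication count to 15. Mitosis genes were also dimmer, with a median log2 signal of 6.71 against 7.13 for replication and 7.60 for all genes, and the part of brightness in the difference was not tested.

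Array by array, the mitosis genes averaged 0.22, 0.22, 0.22 and 0.26 in control arrays relative to each gene's own mean, and -0.26, -0.30, -0.06 and -0.31 in starved arrays. The controls were nearly alike and starved G stood closest to them. The replication genes averaged 0.06, 0.24, 0.14 and 0.04 in control and -0.21, -0.09, 0.01 and -0.19 in starved arrays. Starved G was again the highest of its group, just under control D. The shift between group means was -0.46 for mitosis and -0.24 for replication. No test was made of these means, since the genes are not replicates of a condition.

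**Figure D3:**
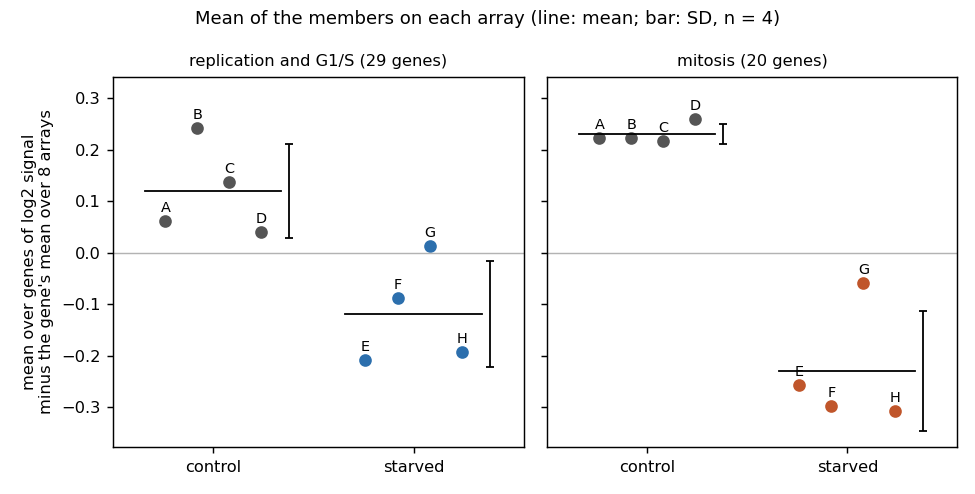
Mean over the measured members of the log2 signal minus each gene's mean over 8 arrays (y axis), per array, for replication and G1/S genes (left) and mitosis genes (right), with group means as lines and the SD over 4 arrays as bars. Starved arrays lie below control arrays in both panels, by 0.24 for replication and 0.46 for mitosis, and starved G is the highest starved array in each.

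Within groups, correlations between members centred near 0. The median correlation between tested members, taken over the arrays after removing group means, was -0.01 over 378 pairs, 0.02 among mitosis genes and 0.03 among replication genes. These arrays share the same normalization and number 8, so the values are descriptive. Several probe sets were available for 24 members, and they shared a sign in 15. Among the 9 members with several tested probe sets they shared a sign in 7, with Mcm7 and Rpa2 as the exceptions.

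**Figure D4:**
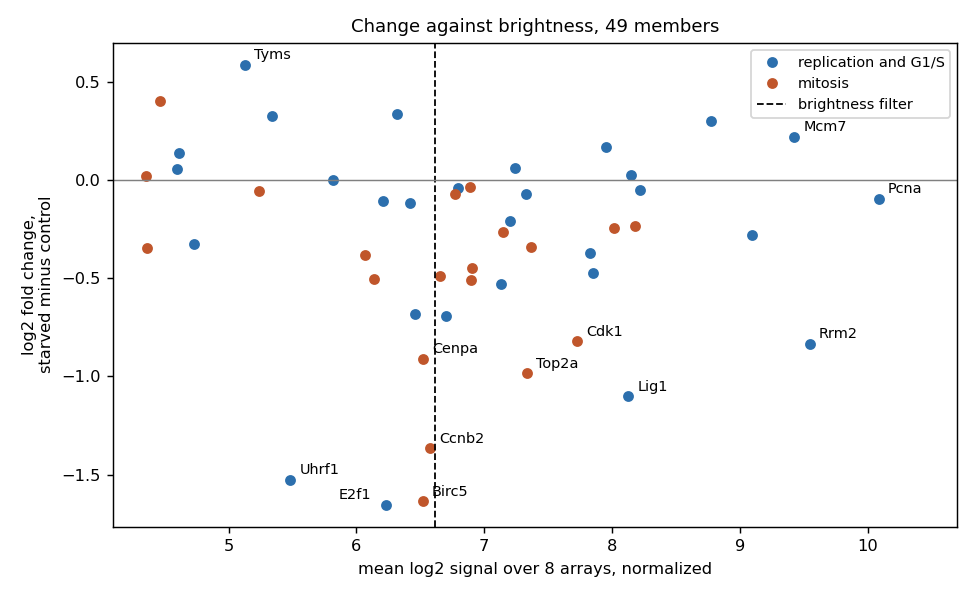
Log2 fold change, starved minus control (y axis), of the 49 measured members against their mean normalized log2 signal over 8 arrays (x axis), with the brightness filter of 6.61 as a dashed line. Ccnb2, Birc5 and Cenpa lie just left of the filter, and Lig1, Rrm2 and Cdk1 are the called genes to its right.

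Further genes of the same pathways were examined in the same fit. Among other replication genes 0 of 25 tested were lower and 0 higher, and the median over the 33 measured was -0.01. At an unadjusted p under 0.05, 0 of these 25 were lower and 4 higher, where 13.2% and 11.1% of all genes tested were. Without the brightness filter, 2 of the 33 were lower and 4 higher at that p, against 10.1% and 8.77% of all genes. Other mitosis genes had 2 of 28 tested lower and 0 higher, with a median of -0.11 over 44 measured. These were Kif22, a chromosome-binding kinesin, which fell by 0.94 ± 0.21 (adjusted p = 0.0156), and Anln, the cytokinesis protein anillin, which fell by 0.72 ± 0.16 (adjusted p = 0.0158). The share of 7.14% lower among these mitosis genes lies near the 6.94% of all genes.

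Of 18 tested regulators of G1 outside the members, 1 was lower and 1 higher. Each is 5.56%, near the 6.94% lower and 4.25% higher of all genes tested. Ccnd2, cyclin D2, rose by 0.65 ± 0.12 (adjusted p = 0.00481). Ccnd3, the cyclin D3 gene that is abundant in myotubes, fell by 0.22 ± 0.06 (adjusted p = 0.0408), a call that was lost without the brightness filter (adjusted p = 0.0755). The CDK inhibitor genes Cdkn1a and Cdkn1b were at -0.09 and 0.24, and Rb1 at 0.09, none of them called.

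By the measure of likeness used, the genes outside the members whose 8 array values best followed the mean of Lig1, Rrm2 and Cdk1 were Igfbp4, with a Pearson correlation of 0.997, Mef2c at 0.996, and Fig4, Idi1 and Rab11fip5 at 0.995 each. Their changes ranged from -0.33 for Mef2c to -2.19 for Igfbp4. The correlation is over 8 arrays that fall into the 2 groups, so it includes the group difference.

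Marker lists for undifferentiated myoblasts, myotubes, fibroblasts and adipocytes were also examined. Whether fibroblasts or adipocytes were present in these cultures of a myoblast line was not tested. The summed normalized signal of 10 undifferentiated myoblast markers was 3281 to 3566 in control and 3773 to 4032 in starved arrays. Of the 8 tested, Id3, Vcam1 and Notch1 rose and Spry1 fell. Id1 was at 0.35, Id2 at 0.36, Cdh2 at -0.11 and Pax7 at -0.10, none of them called. Cd34 and Myf5 were below the filter. The myotube markers summed to 82831 to 85276 in control and 77402 to 80512 in starved arrays, with 1 of 10, Des, lower (adjusted p = 0.0153), a call that was lost without the brightness filter (adjusted p = 0.0704). Fibroblast markers, 7 of 8 tested, summed to 7845 to 8546 in control and 7026 to 8409 in starved arrays, and their calls were opposed. Pdgfrb and Col1a1 fell by 1.83 and 1.15 on the log2 scale (adjusted p = 1.30e-06 and 4.90e-06), whereas Dcn rose by 0.94 (adjusted p = 0.00147). Adipocyte markers, 2 of 4 tested, summed to 382 to 599 in control and 745 to 987 in starved arrays. Of these, Lpl rose by 1.16 (adjusted p = 0.000579), and Fabp4 was at 0.13 (adjusted p = 0.759). Below the filter, Adipoq was at -0.08 and Cidec at 0.00, so Lpl was the only adipocyte marker called. The part of cell type make-up in the results above was not tested.

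Among technical measures, the starved arrays tended to be dimmer, with trimmed mean intensities of 243 to 366 against 317 to 455 in control arrays. With the deposited values left unscaled, 7 members were lower and 0 higher, when 1027 of 8355 genes were lower and 45 higher. On control B the Gapdh control probe sets at the 3′ end exceeded those at the 5′ end by 1.40 on the log2 scale, against -0.23 to -0.04 elsewhere. Without control B the called members were again Lig1, Rrm2 and Cdk1.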

How the data were processed

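Total RNA from C2C12 myotubes, 4 control and 4 starved samples, was put on Affymetrix mouse arrays. The authors deposited 1 intensity per probe set and array on a linear scale. Their software was not given in the sources used here, and trimmed means differed 1.87 times between arrays. The number of arrays limits precision.

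An offset of 10.9 (10th percentile, values below 0 set to 0) was added before log2, and arrays were quantile normalized. The 64 control probe sets were left out. Those brighter on average than the 40th percentile (13575) were tested with limma 3.58.1 in R 4.3.3 (lmFit, eBayes with an intensity trend) and Benjamini-Hochberg adjustment over all of them. The procedure was tested on simulated data. Each gene stands for its brightest probe set with 1 symbol in the platform annotation, taken among tested ones where there were any. Promoters were searched and figures drawn in Python 3.11.15 with matplotlib 3.10.9.

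Full values are given for members that were called and for the largest change in each role. Mcm4, Rrm1, Pcna, Tk1 and Mki67 were added after their values were seen. The members and lists were chosen with earlier results of these data known. Alternatives were other scalings, offsets, brightness filters, variance models, array weights and probe set rules, and leaving out each array. The fit without a filter under each of these was chosen after the data were seen. Replicate letters are not shared between groups and pair nothing.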

Additional observations from a re-analysis of the deposited data

Results flagged for a closer look

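Of 30 sets of 4 array values examined among the members, 3 had an array far from the others of its group by Dixon's ratio, and chance flags about 1 in 20. Cdk1 had a signal of 7.97 on control B, with the other control arrays at 8.18 to 8.20. Top2a had a signal of 5.45 on starved H, with the others at 7.23 to 7.39. The mean over the mitosis genes was 0.26 on control D, with the other control arrays at 0.22.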

How the results depend on the processing

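Lig1 and Rrm2 were called lower in all 20 alternatives and Cdk1 in the 19 that tested it; no member was called higher in any of them. The changes of the called genes and of the largest in each role kept their sign in every alternative, but with the dimmest tested probe set Mcm7 was at -0.46 in place of 0.22 and Rpa2 at 0.35 in place of -0.21. Unscaled values gave 26 negative replication genes in place of 19, 5 lower replication genes and 2 lower mitosis genes, with medians of -0.43 and -0.74 around an all-gene median of -0.34. With the mean of probe sets 3 replication genes were lower, Mcm4 being added. Median centring put the mitosis median at -0.42. Without an offset it was -0.49 and the difference between the lists 0.40. The number of lower mitosis genes was 3 without a brightness filter, 0 with a filter at the 60th percentile, where Cdk1 was not tested, and 2 with the dimmest tested probe set, which added Cdc20. Leaving out each array in turn gave 1 to 3 lower mitosis genes (2 without starved E or G, 3 without starved F or H, as Ccnb2 and Birc5 passed the filter). These genes passed it because the control arrays, where they were brighter, then weighed more in the mean. With 1 array left out, replication medians were -0.14 to -0.030 (the highest without control C). Mitosis medians were -0.46 to -0.35 (the lowest without starved G). Differences were 0.22 to 0.39, with 0.39 without starved G and 0.36 without control C. No paired analysis was possible because the replicate letters differ between the groups. Apart from the changes that follow from the filter or the probe set, the cause was not tested. For members below the filter, the low signal limits what the arrays resolve.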
